A study of Mus musculus with 12 samples.

Results

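The change of tail dermis over the days after birth was followed with 6 of the 12 arrays of the study, 3 labelled P1 tail (postnatal day 1, replicates 4, 5 and 6) and 3 labelled P5 tail (postnatal day 5, replicates 2, 3 and 4). All probe sets of the array were compared, and each difference is P5 minus P1. All mice were C57Bl6/CBA F1, and the labels name no transgene, deletion or treatment in any group. The other 6 arrays, labelled back, were of the same strain and ages (P1 back replicates 1, 5 and 6, and P5 back replicates 1, 2 and 3). They shared the estimate of the spread and gave the back values set beside those of tail. The preparation is described for P1 only. There, tail dermis was peeled from the epidermis in EDTA, back dermis was peeled in a mixture of dispase and trypsin, and both were digested to single cells before lysis, so for any comparison of sites the site and the solution cannot be told apart. The RNA of the P1 groups is said to come from triplicate mice, nothing of the kind is stated for P5, and the p-values measure only the spread between these arrays, which may be technical.

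In the days after birth the hair follicles of mouse skin finish their downgrowth, begin to build a hair shaft and acquire sebaceous glands that fill with lipid. The dermis around them is made by fibroblasts of a papillary lineage, which also forms the dermal papilla of the follicle, and of a reticular lineage, which also gives rise to the fat cells of the dermis. Growth after birth is accompanied by the silencing of a network of fetal and imprinted growth genes, and Wnt and hedgehog signals pass between follicle epithelium and dermal papilla throughout follicle growth.

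The deposited values are log2 values centred on the median of the 12 arrays for each probe set, so a value of 0 is the middle of the arrays and no level above background can be read. P5 tail replicate 2 lay farthest from its group, with an SD of 0.325 over probe sets in its deviation from the group mean, against 0.141 to 0.258 in the other 5 tail arrays and 0.123 to 0.182 in the back arrays. P1 tail replicate 4 stood apart in gene groups of other cell types, with a mean over 42 cornified envelope genes of -1.44 (0.70 and -0.33 in replicates 5 and 6) and a mean over 41 skeletal muscle genes of 1.24 (0.46 and 0.29). Counts are therefore also given with both of these arrays left out, which was decided on once their values had been seen. The site labels go against the position genes at both ages. The mean of 14 posterior Hox genes, which mark the hind end of the body, was between -0.77 and -0.60 in the 6 arrays labelled tail and between 0.61 and 0.71 in the 6 labelled back. Hoxd11 was at -1.84, -1.93 and -1.52 in the libraries labelled P1 tail and at -1.18, -1.54 and -1.87 in those labelled P5 tail. The mean of 31 adipocyte genes was between 0.58 and 0.86 in P1 tail and between -0.67 and -0.58 in P1 back. Whether the labels tail and back were exchanged was not tested. If they were, each value given for tail is one of back skin, so sites are named here by their labels alone. With age, 0 of the 14 posterior Hox genes and 0 of 7 sex-linked genes passed the limma test in the libraries labelled tail (1 of each at an unadjusted p under 0.05). The mean of the sex-linked genes was -0.45 in P5 tail replicate 2 and 0.20 in P5 tail replicate 4, against -0.06 to 0.09 in the other 10 arrays. Of 8 fibroblast markers fixed for the check of the tissue, 0 passed the test (1 at an unadjusted p under 0.05). Col1a1, the main collagen chain of dermis, differed by 0.09 (adjusted p = 0.593) and Pdgfra, the receptor used to mark dermal fibroblasts, by -0.41 (adjusted p = 0.171).

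Between P1 and P5, 9 of 15 sebaceous gland genes, 17 of 34 genes of hair keratin-associated proteins and 14 of 29 lipid and sterol synthesis genes rose in the libraries labelled tail. Over the same days 7 of 17 mast cell genes, 12 of 34 macrophage genes, 7 of 23 imprinted growth genes and 9 of 31 adipocyte genes fell, while 5 of the adipocyte genes rose. The remaining members of these groups did not pass the test, apart from 1 lipid synthesis gene that fell. Of 45037 probe sets, 1405 (3.12%) passed the limma test between the ages (adjusted p under 0.05), 798 higher and 607 lower at P5. Averaged over probe sets with 1 symbol, 964 of 18193 genes differed (5.3%), 608 being higher (3.34%) and 356 lower (1.96%). The arrays of P1 and P5 did not overlap in 959 of the 964. Group means of 349 genes (1.92%) were at least 2-fold apart, 226 higher and 123 lower, and 288 of these also passed the test. The median difference over all genes was 0.039 on the log2 scale. The fit pooled the spread of all 12 arrays. The SD of the deviation from the group mean was 0.123 to 0.182 in back and 0.141 to 0.325 in tail. The spread in tail may therefore be understated. From the 6 tail arrays alone limma called 315 genes, and an unpaired t-test with Benjamini-Hochberg adjustment called 0. The study names the unpaired t-test for its statistics in general, and for arrays it states a 2-fold threshold. It names no Benjamini-Hochberg adjustment. The number of genes called depended on single arrays: it was 472 without P1 tail replicate 4, 530 without P1 tail replicate 6, 1685 without P5 tail replicate 3 and 444 without both P1 tail replicate 4 and P5 tail replicate 2. In bulk RNA, fewer cells of a type and less RNA per cell cannot be told apart, which holds for every cell type named here.

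**Figure D1:**
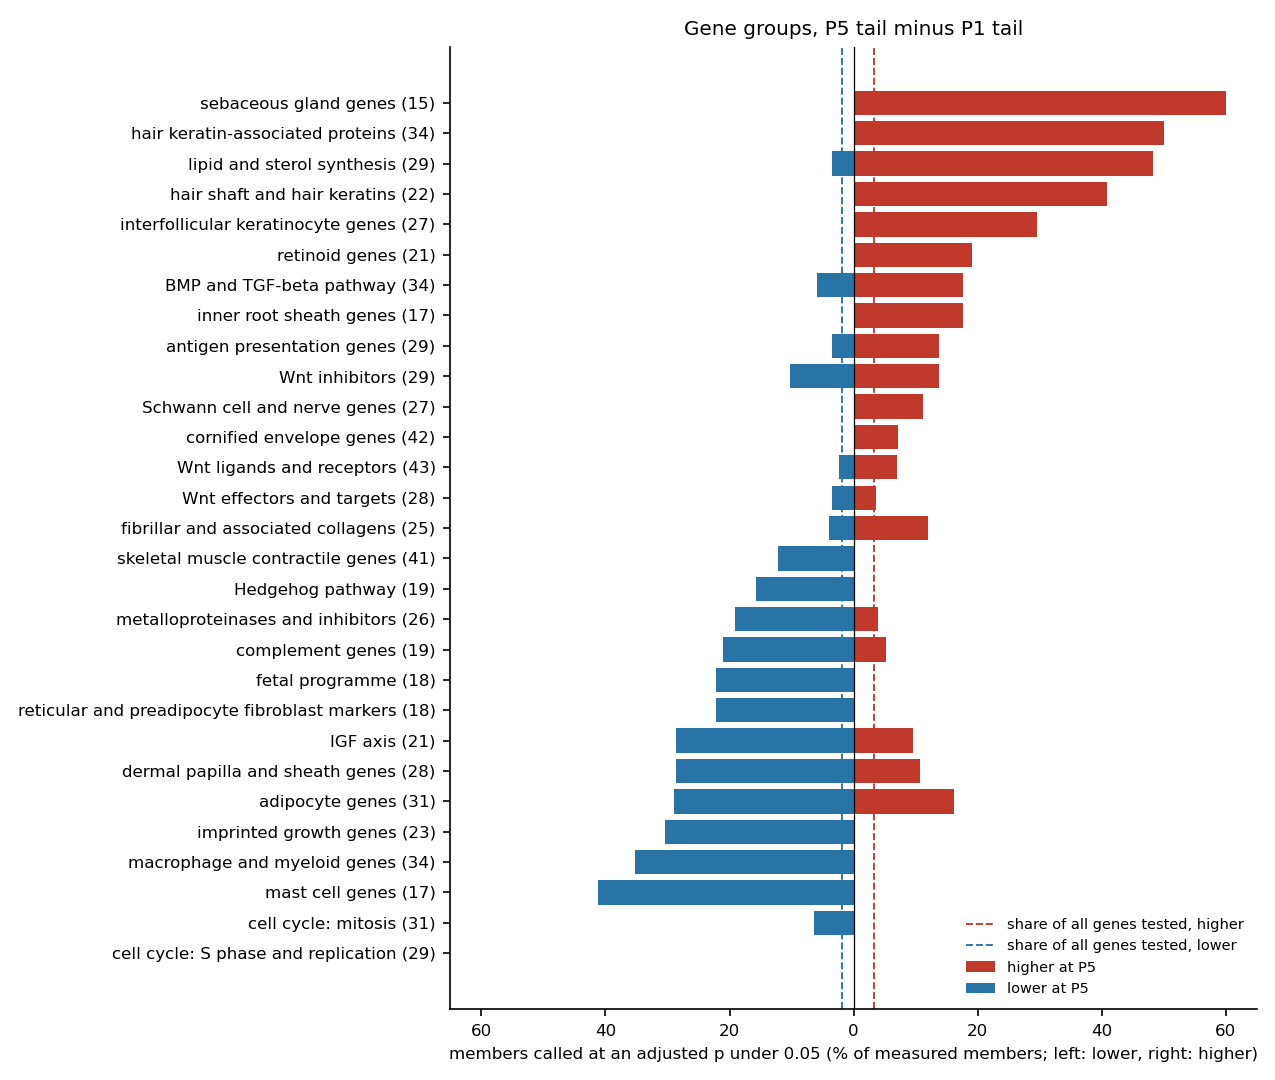
Share of the measured members of 29 gene groups (number in brackets) called lower (left, blue) or higher (right, red) at P5 in the arrays labelled tail, at an adjusted p under 0.05 by limma. Dashed lines give the shares over all 18193 genes, 1.96% lower and 3.34% higher; sebaceous gland genes reach 60% higher and mast cell genes 41.2% lower.

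The largest differences over all genes were those of the keratin-associated protein genes, whose products cross-link the keratin filaments of the hair shaft. Of 34 measured members, 17 rose (50%, against 3.34% of all genes), with a median difference over the 34 of 1.5 (0.039 over all genes). Krtap19-2 was at -3.11, -1.78 and -1.11 in the P1 arrays and at 3.17, 4.24 and 1.11 in the P5 arrays, a difference of 4.84 on the log2 scale (28.7-fold, SE 0.81, adjusted p = 0.00396). All 3 P5 arrays lay above all 3 P1 arrays, with P1 tail replicate 4 lowest and P5 tail replicate 4 the lowest of the P5 arrays. Krtap19-1 differed by 4.52 (SE 0.68), Krtap19-5 by 4.48 (SE 0.70), Krtap16-3 by 3.88 (SE 0.63) and Krtap6-3 by 3.27 (SE 0.52), each higher in 3 of 3 P5 arrays. The measured members of the Krtap4 and Krtap5 families did not pass the test, for example Krtap4-1 at 0.01 (adjusted p = 0.993) and Krtap5-5 at 0.20 (adjusted p = 0.682). In the back arrays Krtap19-2 differed by 5.78, and the difference between the sites was -0.94 (SE 1.14, adjusted p = 0.789). The count of 17 lay between 12 and 20 with any 1 tail array left out, was 7 with array weights and was 3 without both P1 tail replicate 4 and P5 tail replicate 2. Genes of this family resemble each other closely, so probe sets may share signal between neighbours.

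The stretches before the starts of 4 of these genes are shown since the genes lie together on chromosome 16 and rose together. Each run gives the 100 bases before the RefSeq start (build GRCm38.p6, minus strand, 5′ to 3′), and capitals mark the letters TATAA, the core of a TATA box.
Krtap19-1 (chr16:88869411-88869510): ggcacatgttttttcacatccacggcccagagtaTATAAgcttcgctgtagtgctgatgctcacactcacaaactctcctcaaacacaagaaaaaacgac
Krtap19-2 (chr16:88874270-88874369): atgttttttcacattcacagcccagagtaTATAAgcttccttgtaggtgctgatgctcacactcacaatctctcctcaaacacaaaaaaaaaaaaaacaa
Krtap19-5 (chr16:88896450-88896549): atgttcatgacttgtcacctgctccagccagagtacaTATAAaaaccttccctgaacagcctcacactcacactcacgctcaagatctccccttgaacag
Krtap16-3 (chr16:88962874-88962973): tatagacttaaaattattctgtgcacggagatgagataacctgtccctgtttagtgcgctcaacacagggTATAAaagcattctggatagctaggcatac
The letters TATAA, searched on both strands after these sequences had been read, stood in 31 of the 32 windows of measured keratin-associated protein genes (96.9%) and in 10.2% of all 32851 windows of the same length in the RefSeq table. The 16 windows of members that rose all held them, so the letters do not separate members that rose from those that did not. In Krtap19-1, Krtap19-2 and Krtap19-5 the core began 66, 71 and 63 bases before the start, and in Krtap16-3 it began 30 bases before it.

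Hair keratins that fill the shaft also rose. Of 22 hair shaft genes, 9 rose (40.9%, against 3.34% of all genes), with a median of 0.95 over the list. Krt33a, a cortex keratin, was at -1.58, -0.99 and -0.45 at P1 and at 1.58, 1.14 and 0.45 at P5, a difference of 2.07 (SE 0.31, adjusted p = 0.00186). The groups did not overlap, and P5 tail replicate 4 was again the lowest of its group. Krt83, Krt31, Krt33b and Krt82 differed by 1.90, 1.86, 1.61 and 1.58. The count was 5 without P1 tail replicate 4, 14 without P5 tail replicate 4, 5 from the 6 tail arrays alone, and 2 with array weights or without both P1 tail replicate 4 and P5 tail replicate 2. Of 17 genes of the inner root sheath, the layer that moulds the shaft, 3 rose (17.6%, against 3.34% of all genes). Among them were Krt72, at 1.19, and the desmosomal cadherin gene Dsc2, at 1.12. That count was 5 without P5 tail replicate 4. Of 24 epithelial regulators of the follicle 4 rose (16.7%, against 3.34% of all genes). They included Lgr6, a stem cell marker of the upper follicle, at 0.89 and Sox9, a regulator of the bulge, at 0.71. The gene of a carbonic anhydrase, Car6, was at -1.06, -0.42 and -0.31 at P1 and at 2.63, 3.20 and 2.05 at P5 (difference 3.22, SE 0.35, adjusted p = 0.000246). The next in size outside the keratin-associated proteins were Atp12a, a proton pump gene, at 3.04, Cst6, a cysteine protease inhibitor of the follicle and epidermis, at 3.00, Ces4a, a carboxylesterase gene, at 2.96 and Krt77, a keratin of sweat ducts and epidermis, at 2.84.

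Sebaceous gland genes rose in 9 of 15 cases (60%, against 3.34% of all genes), with a median of 1.14 over the 15 in tail and 0.16 in back. Cidea, a lipid droplet gene of sebocytes and brown fat, was at 0.02, 0.34 and -0.02 in the P1 arrays and at 3.26, 3.14 and 2.11 in the P5 arrays. All P5 arrays lay above all P1 arrays, and the difference was 2.72 (6.6-fold, SE 0.26, adjusted p = 0.000109). In the back arrays Cidea differed by 0.45, and the difference between the sites was 2.28 (SE 0.37, adjusted p = 0.00587). Krt79, a keratin of the sebaceous duct, was at 0.31, 0.41 and 0.17 at P1 and at 1.65, 1.74 and 1.62 at P5, a difference of 1.37 with the narrow SE of 0.10. In back it differed by -0.59 (difference between the sites 1.96, adjusted p = 6.4e-05). Far2, which makes the fatty alcohols of wax esters, differed by 2.11, Elovl3, a fatty acid elongase of the gland, by 2.01, Acsbg1 by 1.93 and Mc5r, the melanocortin receptor of sebocytes, by 1.14. Mc5r lost its call without P1 tail replicate 4, 5 or 6 or P5 tail replicate 2 or 3. The count of 9 was 8 or 9 with any 1 array left out and 8 without both P1 tail replicate 4 and P5 tail replicate 2.

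Genes of lipid and sterol synthesis rose in 14 of 29 cases (48.3%, against 3.34% of all genes), with a median of 0.43 in tail and 0.07 in back. Of the 14, 7 were desaturases and elongases of fatty acids, and the others included Acacb, a carboxylase gene of fatty acid metabolism, at 0.89 and Me1, which supplies NADPH, at 0.82. Scd3, the desaturase of sebaceous glands, was at -0.54, -0.39 and -0.20 at P1 and at 2.38, 2.36 and 1.47 at P5 (difference 2.44, SE 0.25, adjusted p = 0.000182). Scd3 and Elovl3 are also members of the sebaceous list. Elovl4, which elongates very long chains of the skin barrier, differed by 1.82, Elovl6 by 1.66 and Scd1 by 1.61. Elovl4 differed by -0.85 in back, and the difference between the sites was 2.67 (adjusted p = 0.00203). Srebf1, the regulator of fatty acid synthesis, differed by 0.72 and its target Fasn by 0.61, a call that was lost without P1 tail replicate 4. In the cholesterol branch Msmo1 rose by 0.84 and Dhcr7, the last step of the pathway, by 0.66, while Hmgcs1 at 0.29 (adjusted p = 0.229) and Sqle at 0.35 (adjusted p = 0.191) did not pass the test. Dhcr7 lost its call without P1 tail replicate 4, Msmo1 without P1 tail replicate 4 or 6 and Me1 without P1 tail replicate 6 or P5 tail replicate 2. Fads1, a desaturase of polyunsaturated fatty acids, fell by 0.49 but lost its call without P1 tail replicate 4 or 6 or P5 tail replicate 2 or 3. The count of 14 was 6 from the 6 tail arrays alone, 9 without P1 tail replicate 4 and 9 without both P1 tail replicate 4 and P5 tail replicate 2.

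**Figure D2:**
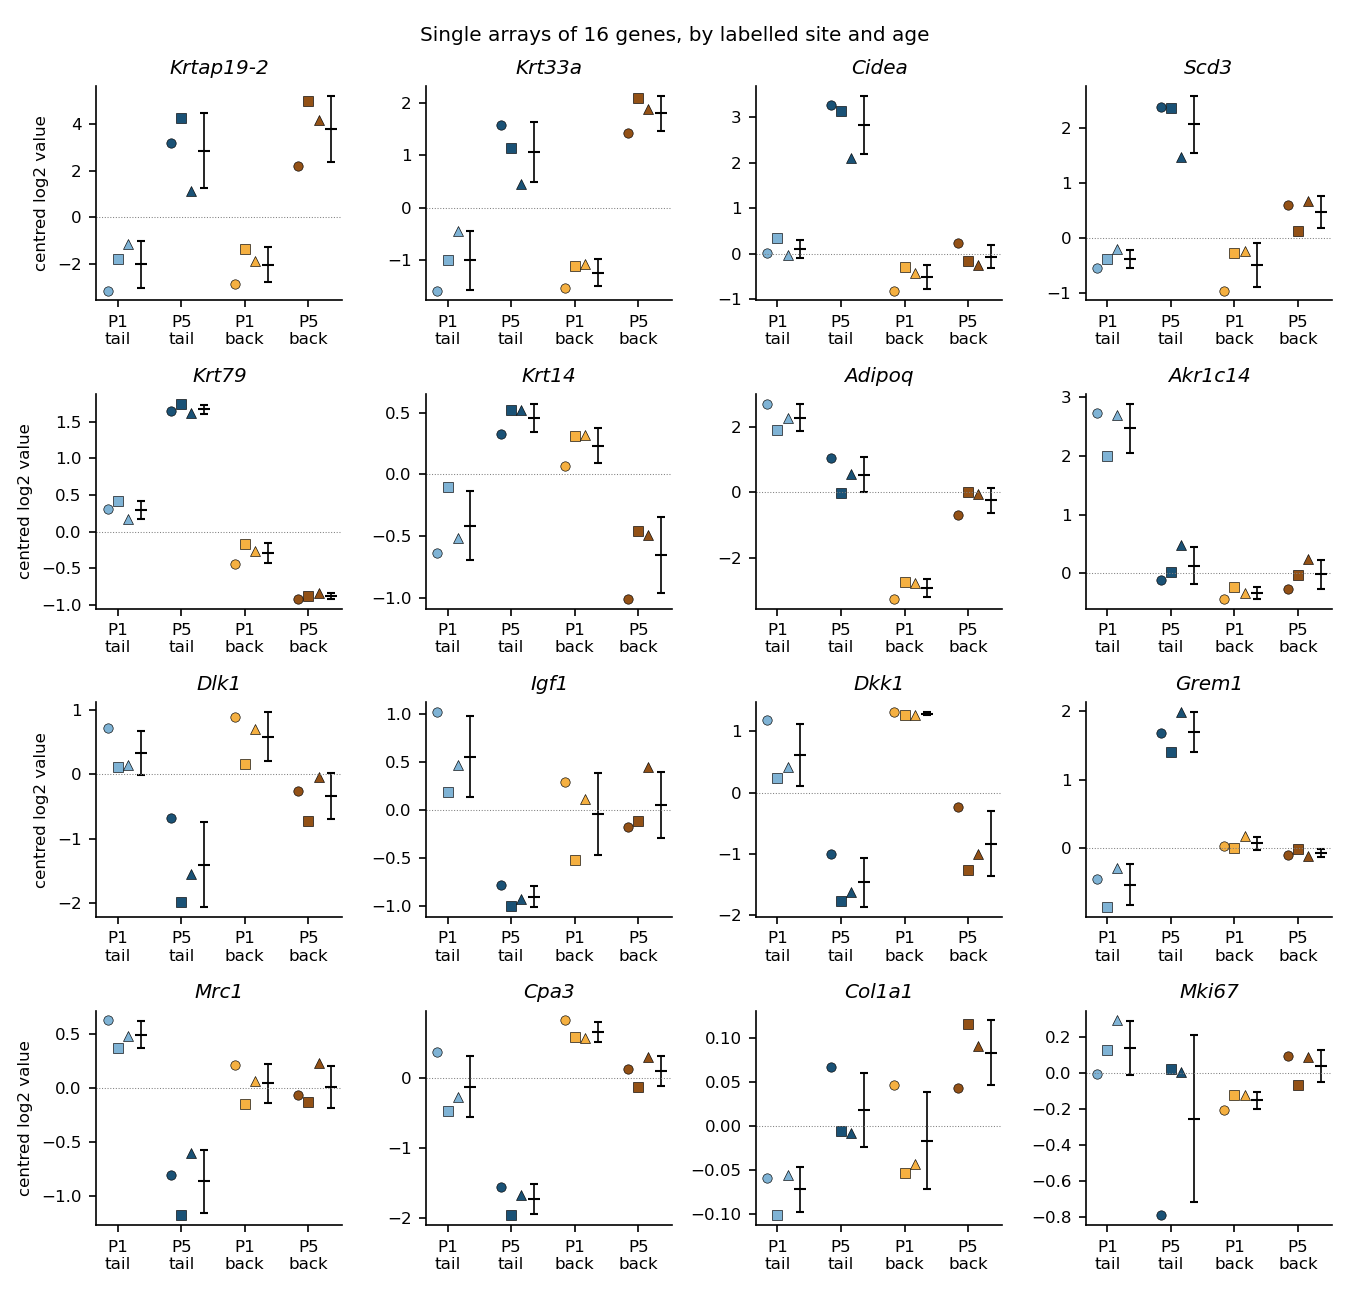
Centred log2 values of 16 genes (vertical axes) in each array, grouped by the labels for age and site, with the mean and SD of 3 arrays to the right of each group. Cidea, Scd3 and Grem1 are highest in the P5 tail arrays, Krtap19-2 and Krt33a in the P5 arrays of both sites, Adipoq and Akr1c14 in the P1 tail arrays, and Mki67 overlaps between the ages.

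Some keratinocyte genes of the epidermis, the layer from which the P1 dermis had been peeled, rose in tail. Of 27 interfollicular keratinocyte genes 8 rose (29.6%, against 3.34% of all genes), with a median of 0.53 in tail and -0.36 in back. Krt14, the keratin of basal cells, was at -0.63, -0.10 and -0.52 at P1 and at 0.33, 0.52 and 0.52 at P5 (difference 0.87, SE 0.17, adjusted p = 0.00947). The arrays of the ages did not overlap. Col17a1, a hemidesmosome collagen, differed by 1.33, Krt15 by 0.96 and Krt77 by 2.84. The keratins of the upper layers were spread widely at P1: Krt1 was at -2.09, 0.91 and -0.03 at P1 and at 0.33, 0.03 and -0.25 at P5 (difference 0.44, adjusted p = 0.709). Lor, which encodes loricrin of the cornified envelope, was at -3.27, 1.30 and -0.63 at P1 and at 0.84, 0.17 and -0.22 at P5 (difference 1.13, adjusted p = 0.453). P1 tail replicate 4 was lowest and replicate 5 highest for both genes, and without P1 tail replicate 4 the differences of Krt1 and Lor were -0.41 and -0.07. Of 42 cornified envelope genes 3 rose (7.14%, against 3.34% of all genes). This number was 0 without P1 tail replicate 4, 13 without P1 tail replicate 5, 6 without P5 tail replicate 4, and 1 without any of the other 3. The number of keratinocyte genes that rose was between 6 and 11 with any 1 array left out and 1 without both P1 tail replicate 4 and P5 tail replicate 2. How much epidermis each array held, and its part in these values, was not tested.

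Several genes of mature fat cells fell in tail, among them Adipoq, which was higher at P5 in back. Of 31 adipocyte genes 9 fell (29%, against 1.96% of all genes) and 5 rose, and the median was -0.16 in tail and 0.45 in back. Adipoq, which encodes adiponectin, was at 2.72, 1.91 and 2.28 at P1 and at 1.06, 0.00 and 0.58 at P5 (3.37-fold lower, difference -1.75, SE 0.28, adjusted p = 0.00307). In back the difference was 2.69, so that the sites differed by -4.44 (SE 0.40, adjusted p = 0.000372). Car3, a carbonic anhydrase abundant in fat, fell by 2.28, Cidec, a protein of large lipid droplets, by 1.68, Hp by 1.57, Retn, which encodes resistin, by 1.55, and Fabp4, a fatty acid carrier, by 1.06. For Lep, which encodes leptin, the difference was -0.76 in tail (adjusted p = 0.0593) and 1.60 in back. Pparg, the regulator of fat cell differentiation, differed by 0.34 (adjusted p = 0.24). The 5 members that rose were Cidea, Plin2, Mgll, Cebpa and Cebpb, at 2.72, 1.20, 0.84, 0.49 and 0.54, of which Cidea and Plin2 are also members of the sebaceous list. The number that fell was between 8 and 10 with any 1 array left out, and the number that rose was 3 without P1 tail replicate 6. Cebpa lost its call without P1 tail replicate 5 or 6, and Cebpb without P1 tail replicate 4 or 6 or P5 tail replicate 2. Outside the list, Akr1c14, a hydroxysteroid dehydrogenase gene, was at 2.72, 1.99 and 2.69 at P1 and at -0.11, 0.03 and 0.48 at P5, and fell by 2.33 (SE 0.21, adjusted p = 7.59e-05). Acvr1c, a receptor of the TGF-beta family found in fat, fell by 1.76 and Cyp2e1 by 1.79.

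Several growth genes of fetal life fell. Of 23 imprinted growth genes 7 fell (30.4%, against 1.96% of all genes), with a median of -0.32 in tail and -0.35 in back. Dlk1, an imprinted gene and marker of the reticular fibroblast lineage, was at 0.73, 0.12 and 0.16 at P1 and at -0.69, -1.99 and -1.55 at P5 (difference -1.74, SE 0.31, adjusted p = 0.00533). Peg10 fell by 1.60, Igf2, the fetal growth factor, by 1.47, Cdkn1c, a cell cycle inhibitor, by 1.00 and the noncoding Rian, of the Dlk1 cluster, by 0.99. Cdkn1c lost its call without P1 tail replicate 4 or 6, and Rian without P1 tail replicate 4 or 6 or P5 tail replicate 2. In back Dlk1 differed by -0.93 and Igf2 by -0.62, and the differences between the sites did not pass the test (adjusted p = 0.425 and 0.330). Peg3 at -0.29 and Mest at -0.48 did not pass it in tail. The count of 7 was 3 without P1 tail replicate 4, 3 without replicate 6 and 4 without both P1 tail replicate 4 and P5 tail replicate 2.

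The ligand Igf1 and the growth hormone receptor, the main parts of the postnatal growth axis, fell. Of 21 genes of the IGF axis 6 fell (28.6%, against 1.96% of all genes) and 2 rose (9.52%, against 3.34%). Igf2, also on the imprinted list, was among those that fell. Igf1, the main postnatal growth factor of this axis, was at 1.02, 0.19 and 0.47 at P1 and at -0.78, -0.998 and -0.93 at P5 (difference -1.46, SE 0.24, adjusted p = 0.00389). Ghr, the growth hormone receptor, was at 0.55, 0.41 and 0.53 at P1 and at -0.58, -0.65 and -0.55 at P5, a difference of -1.09 with an SE of 0.09. Neither overlapped between ages, and in back Igf1 and Ghr differed by 0.09 and -0.21 (difference between the sites, adjusted p = 0.0285 for Igf1 and 0.00399 for Ghr). Igfbp3, an IGF binding protein, fell by 1.37, whereas the binding protein genes Igfbp2 and Igfbp5 rose by 1.00 and 0.87. Igfbp2 lost its call without P1 tail replicate 4 or 6 and Igfbp5 without P1 tail replicate 5, and the number that rose was 1 without any 1 of the P1 tail arrays. The receptor gene Igf1r was at -0.04 (adjusted p = 0.888). Of 18 genes of a fetal programme 4 fell (22.2%, against 1.96% of all genes). Sox11, a transcription factor of fetal tissues, fell by 1.69 and Hmga2, a chromatin protein, by 0.73. That count was 2 without P1 tail replicate 4 or 6 or P5 tail replicate 3, and 1 without both P1 tail replicate 4 and P5 tail replicate 2. The largest fall among the genes that passed the test was that of Nrk, an X-linked kinase gene of placenta and fetal muscle, at 0.97, 0.24 and 0.74 at P1 and at -1.68, -1.81 and -1.71 at P5 (difference -2.38, SE 0.39, adjusted p = 0.00344). Agtr2, the angiotensin receptor of fetal mesenchyme, fell by 2.26.

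Markers of the reticular fibroblast lineage fell in part, and those of the papillary lineage showed no common direction. Of 14 papillary markers 1 rose (7.14%, against 3.34% of all genes), Crabp1 by 1.18. Also 1 fell (7.14%, against 1.96%), Trps1 by 0.62, a call lost without P1 tail replicate 4 or 6 or P5 tail replicate 2. The number that rose was 3 without P5 tail replicate 2, and the number that fell was 2 without P1 tail replicate 5. Lrig1 was at 0.28, 0.24 and 0.14 at P1 and at 0.34, 0.68 and 0.64 at P5 (difference 0.33, adjusted p = 0.132), Dpp4 differed by 0.36 (adjusted p = 0.0984), Prdm1 by -0.30 (adjusted p = 0.231) and Itga8 by 0.15 (adjusted p = 0.723). The arrays of the ages did not overlap for Lrig1, although its difference did not pass the test. Of 18 reticular and preadipocyte markers 4 fell (22.2%, against 1.96% of all genes), Dlk1, Mfap5 by 1.35, Cd36 by 0.66 and Gpc3 by 0.58, and Cd34 was at 0.02 (adjusted p = 0.974). The count of 4 was 1 without P1 tail replicate 4, 1 without P1 tail replicate 6 and 2 without P5 tail replicate 3. Mfap5 lost its call without any 1 array except P5 tail replicate 2, Cd36 without P1 tail replicate 4 or 6 or P5 tail replicate 2, and Gpc3 without P1 tail replicate 4 or 6 or P5 tail replicate 3. Among 25 collagens, Col4a5, of basement membranes, rose by 1.10, Col8a1 by 0.79 and Col16a1 by 0.72, while Col6a3 fell by 0.57. Col16a1 lost its call without P1 tail replicate 5 or 6, and Col6a3 without P1 tail replicate 4 or 6 or P5 tail replicate 2 or 3. Col3a1 was at 0.04 (adjusted p = 0.885) and the elastin gene Eln at 0.36 (adjusted p = 0.422). Of 26 metalloproteinases and inhibitors 5 fell (19.2%, against 1.96% of all genes). Adamts20, a versican-cleaving protease, was at 1.79, 1.21 and 1.80 at P1 and at -0.79, 0.48 and -0.34 at P5. Its difference was -1.82 (SE 0.28). Adamts4 fell by 1.15, Adamts12 by 1.02 and Adamts9 by 0.64, and Mmp12 alone rose, by 0.46, a call that was lost without P1 tail replicate 4 or 6 or P5 tail replicate 2.

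Among genes of Wnt signalling, secreted inhibitors differed in both directions. Of 29 inhibitors 4 rose (13.8%, against 3.34% of all genes) and 3 fell (10.3%, against 1.96%). Dkk1, which blocks the Lrp co-receptors, was at 1.18, 0.23 and 0.42 at P1 and at -1.01, -1.76 and -1.62 at P5 (4.21-fold lower, difference -2.07, SE 0.28, adjusted p = 0.00114). In back it differed by -2.12. Sfrp4, which binds Wnt ligands, fell by 1.503 in tail and differed by 0.41 in back (difference between the sites -1.91, adjusted p = 0.00112). The related Sfrp1 rose by 1.09, Sostdc1, an inhibitor of Wnt and BMP signals in follicle epithelium and dermal papilla, by 1.11 and Dkk2 by 1.22. Of 43 ligands and receptors 3 rose (6.98%, against 3.34% of all genes), Fzd7 by 0.69, Fzd6 by 0.41 and Lgr6. Fzd4 alone fell, by 1.10 (2.33%, near the 1.96% of all genes). The number that rose was 5 without P5 tail replicate 3, the number that fell was 3 without P5 tail replicate 2 and 2 without P1 tail replicate 5 or P5 tail replicate 4, and Fzd6 lost its call without any 1 array except P5 tail replicate 3. Of 28 effectors and targets 1 rose (3.57%) and 1 fell (3.57%, Dkk1), near the shares over all genes. The gene that rose was Fst, by 0.59, a call lost without any 1 array except P5 tail replicate 4. Lef1 was at -0.18, -0.04 and 0.19 at P1 and at 0.26, -0.29 and -0.17 at P5, a difference of -0.05 (SE 0.14, adjusted p = 0.872). Axin2, the feedback target of the pathway, differed by 0.21 (adjusted p = 0.369), Ccnd1 by 0.06 (adjusted p = 0.883), Ctnnb1, which encodes beta-catenin, by 0.01 (adjusted p = 0.979) and Tcf7l2 by -0.08 (adjusted p = 0.831). For these 5 genes the P1 and P5 arrays overlapped.

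BMP antagonists also moved in both directions. Grem1, a secreted BMP antagonist, was at -0.44, -0.85 and -0.28 at P1 and at 1.68, 1.40 and 1.98 at P5, and rose by 2.21 (4.64-fold, SE 0.16, adjusted p = 3.36e-05). It differed by -0.15 in back (difference between the sites 2.36, adjusted p = 0.000471). Chrdl1, another BMP antagonist, fell by 1.06 in tail. The ligand genes Tgfb3 and Inhbb rose by 0.80 and 0.73. Of 34 genes of the BMP and TGF-beta pathway 6 rose (17.6%, against 3.34% of all genes). The 2 that fell (5.88%, against 1.96%) were Chrdl1 and Tgfbr1, the latter by 0.55. In the hedgehog pathway 3 of 19 genes fell (15.8%, against 1.96% of all genes). These were the target Gli1 by 0.80, the receptor Ptch1 by 0.71 and Hhip, an inhibitor and target, by 1.07. Gli1 and Ptch1 differed by -0.86 and -0.71 in back, and Gli1 lost its call without P1 tail replicate 4. Of 28 dermal papilla and sheath genes 8 fell (28.6%, against 1.96% of all genes) and 3 rose (10.7%, against 3.34%). Prom1, a marker of the papilla, was at 0.75, 0.02 and 0.27 at P1 and at -1.52, -1.42 and -0.88 at P5 (difference -1.62, SE 0.19, adjusted p = 0.000533). Corin, a serine protease of the papilla, fell by 1.01 and Sox18, also on the endothelial list, by 1.25. The 3 that rose were Crabp1 by 1.18, Sostdc1 by 1.11 and Snap91 by 0.89. The number that fell was between 6 and 11 with any 1 array left out. Of 21 retinoid genes 4 rose (19%, against 3.34% of all genes). Among them were Lrat, which stores retinol as esters, at 1.01 and Rarg, a retinoic acid receptor, at 0.76. Crabp1, also on the papillary and dermal papilla lists, was another. That count was 2 without P1 tail replicate 4 or 6, and Rarg lost its call without any 1 P1 tail array.

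Genes of resident macrophages and mast cells fell in part. Of 34 macrophage and myeloid genes 12 fell (35.3%, against 1.96% of all genes), with a median of -0.43 in tail and 0.02 in back. Mrc1, the mannose receptor of resident macrophages, was at 0.62, 0.37 and 0.48 at P1 and at -0.81, -1.18 and -0.61 at P5 (difference -1.36, SE 0.16, adjusted p = 0.000409). It differed by -0.03 in back (difference between the sites -1.32, adjusted p = 0.0069). The platelet factor gene Pf4, which tissue macrophages also express, fell by 1.58, the haemoglobin scavenger receptor gene Cd163 by 1.21, Tyrobp by 1.00 and F13a1 by 0.96. Adgre1, the classical macrophage surface marker, was at -0.73 and did not pass the test (adjusted p = 0.0906). The count of 12 was 7 without P1 tail replicate 4 and 11 without both P1 tail replicate 4 and P5 tail replicate 2. Of 17 mast cell genes 7 fell (41.2%, against 1.96% of all genes). Cpa3, a granule protease, was at 0.38, -0.47 and -0.27 at P1 and at -1.56, -1.97 and -1.67 at P5 (difference -1.61, SE 0.20, adjusted p = 0.000591). Cma1, which encodes a chymase, fell by 1.53, Hdc, the histamine synthesis gene, by 1.04 and Tpsb2, a tryptase gene, by 0.85. The latter pair lost their calls without P1 tail replicate 4, without which 4 of the 17 passed. From the 6 tail arrays alone 1 of the 17 passed and with array weights 2 did, and of the 34 macrophage genes 5 passed from the 6 tail arrays alone. Kit, the receptor of mast cells and melanocytes, was at -0.33 (adjusted p = 0.433).

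Antigen presentation genes rose in part, as did 2 T cell receptor genes, and complement genes fell in part. Few chemokine and endothelial genes passed the test. Cd3g, a T cell receptor component, was at -0.04, 0.04 and -0.37 at P1 and at 1.68, 1.76 and 1.24 at P5, and rose by 1.68 (SE 0.21, adjusted p = 0.000591). With Cd3d, at 0.52, it was the pair that rose among 24 lymphocyte genes (8.33%, against 3.34% of all genes). Cd3d lost its call without any 1 array except P5 tail replicate 3. Of the 24, 16 had a positive and 8 a negative difference. Cd3e at 0.70, Cd247 at 0.04, Cd4 at 0.03 and Cd8a at -0.13 did not pass the test. Of 29 antigen presentation genes 4 rose (13.8%, against 3.34% of all genes), including Cd74, the class II invariant chain, by 0.92, and 1 fell, but the number that rose was 0 without P1 tail replicate 4 or 6 or P5 tail replicate 2, 9 without P5 tail replicate 3 and 8 without P5 tail replicate 4. Cd74 lost its call without P1 tail replicate 4 or 6 or P5 tail replicate 2 or 4. The neutrophil-attracting chemokine gene Cxcl1 fell by 1.59 in tail and differed by -1.64 in back. Of 41 chemokines and receptors 3 fell (7.32%, against 1.96% of all genes), while 20 had a positive and 21 a negative difference. That count was 1 without both P1 tail replicate 4 and P5 tail replicate 2, and 0 with array weights. Sele and Selp, the selectins by which vessels catch leukocytes, fell by 1.45 and 1.01. With Sox18 they were the 3 that fell among 35 endothelial genes (8.57%, against 1.96% of all genes). Of the 35, 13 had a positive and 22 a negative difference, and 5 fell without P1 tail replicate 5. Among 19 complement genes 4 fell (21.1%, against 1.96% of all genes), including the receptor gene C3ar1 by 1.04, and Clu, a chaperone-like inhibitor, rose by 1.41. The number that fell was 2 without P1 tail replicate 4.

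Muscle and cell cycle genes were lower on average, with few calls. Of 41 skeletal muscle genes 5 fell (12.2%, against 1.96% of all genes), the median being -0.75. Mybpc1, of slow muscle filaments, was at 1.61, 0.31 and -0.28 at P1 and at -1.26, -1.31 and -1.41 at P5 (difference -1.87, SE 0.49, adjusted p = 0.0462). P1 tail replicate 4 was the highest array, and the call was lost without any 1 array except P1 tail replicate 6. The count of 5 was 1 without P1 tail replicate 4 or P5 tail replicate 2, and 2 without P1 tail replicate 5 or P5 tail replicate 3. Actc1, the cardiac and fetal muscle actin gene, differed by -3.45 but did not pass the test (adjusted p = 0.0947). How much muscle each array held, and its part in these values, was not tested. Of 31 mitosis genes (median -0.25) 2 fell (6.45%, against 1.96% of all genes), Kif11 by 0.48 and Ect2 by 0.56. A negative difference was seen in 27 of the 31. Ect2 lost its call without P1 tail replicate 4 or 6 or P5 tail replicate 2 or 4, and Kif11 without P1 tail replicate 4 or 6. The count was 0 without P1 tail replicate 4 or 6, and 6 without P5 tail replicate 3 or 4. Mki67, the proliferation marker, was at 0.00, 0.13 and 0.29 at P1 and at -0.79, 0.02 and 0.00 at P5 (difference -0.39, adjusted p = 0.24). None of 29 genes of S phase passed the limma test (4 at an unadjusted p under 0.05), and Pcna was at -0.02 (adjusted p = 0.943).

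Genes of xenobiotic metabolism split. Of 37 detoxification genes 6 rose (16.2%, against 3.34% of all genes) and 5 fell (13.5%, against 1.96%). The differences over the list ran from -2.33 to 2.80, and the genes described next all rose. From the 6 tail arrays alone 4 members rose and 3 fell, and with replicate number as a fixed block 2 rose and 5 fell. Aldh3a1, an aldehyde dehydrogenase gene of barrier epithelia, was at 0.10, -0.12 and -0.14 at P1 and at 3.34, 2.76 and 2.15 at P5 (difference 2.80, SE 0.26, adjusted p = 9.04e-05). Cyp1a1, the classical target of the aryl hydrocarbon receptor, was at -0.15, 0.03 and 0.23 at P1 and at 2.58, 2.58 and 1.30 at P5 (difference 2.12, SE 0.27, adjusted p = 0.000766). Nqo1, a target of the same receptor and of the oxidative stress response, rose by 1.01. In back these 3 genes differed by 0.94, 0.19 and 0.08, and each difference between the sites passed the test (1.86, 1.93 and 0.93, adjusted p = 0.0169, 0.0180 and 0.0275). Defb6, a beta-defensin gene named after its values were seen, rose by 2.62 (SE 0.21).

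**Figure D3:**
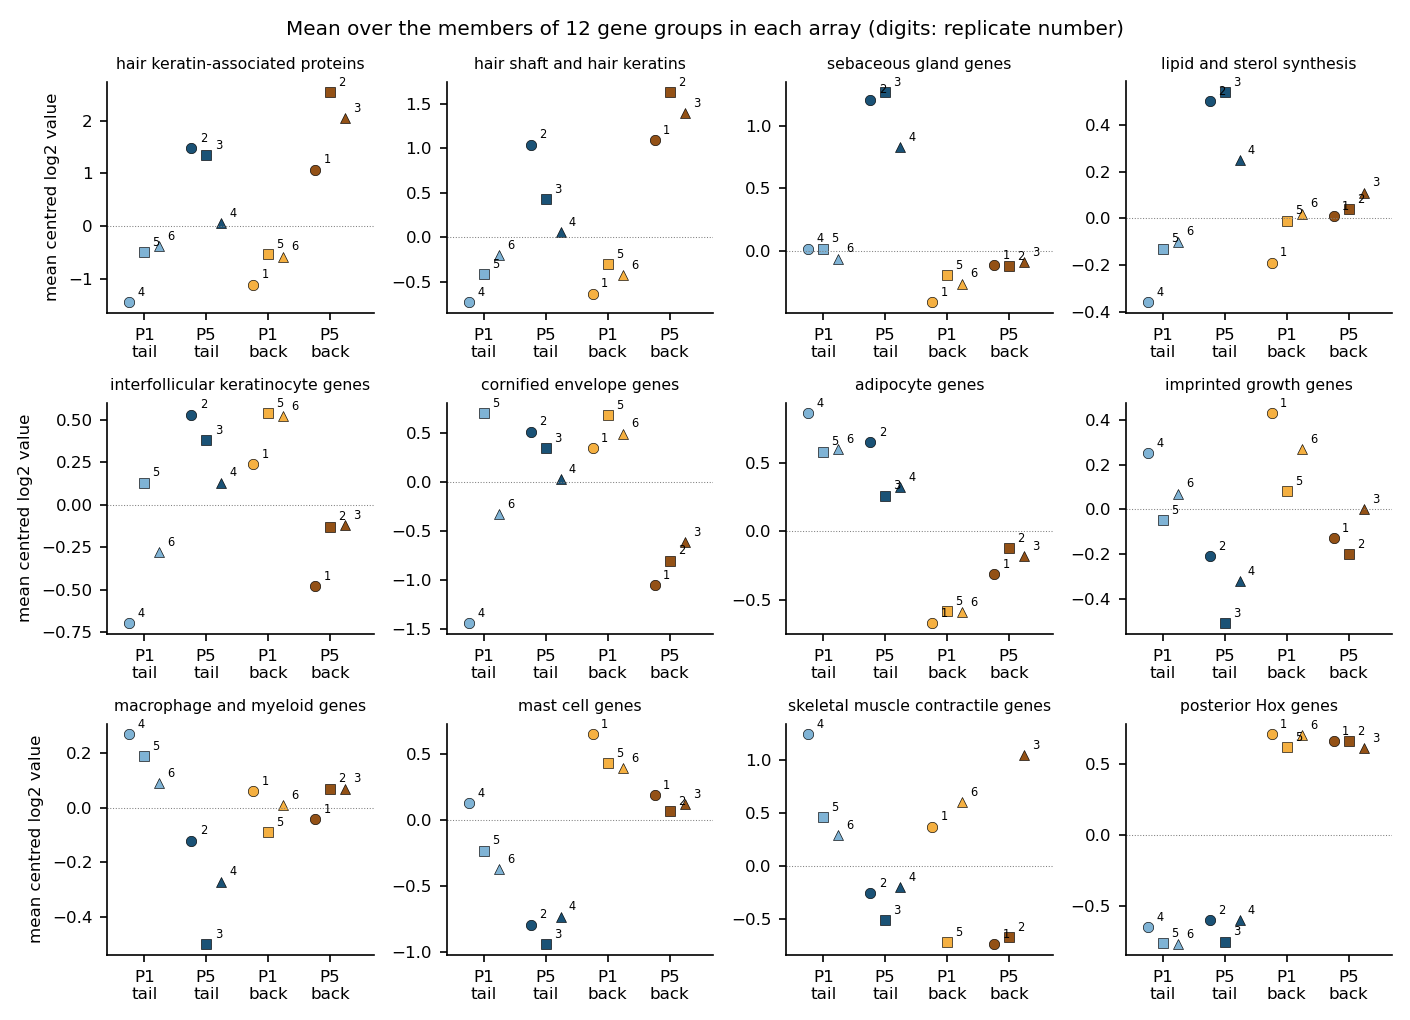
Mean centred log2 value (vertical axis) over the measured members of 12 gene groups in each of the 12 arrays, grouped by the labels, with replicate numbers as digits. P1 tail replicate 4 is lowest for cornified envelope genes (-1.44) and highest for skeletal muscle genes (1.24), P5 tail replicates 2, 3 and 4 are the highest for sebaceous gland genes, and posterior Hox genes are low in all arrays labelled tail.

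The age differences of tail and back themselves differed in 522 of 18193 genes (2.87%) by limma. The P5 minus P1 difference was higher in tail than in back for 351 and lower for 171. Leaving out replicate 6 or 5 of P1 back left 239 or 272, leaving out P1 tail replicate 6 left 272, and leaving out replicates 1, 2 and 3 of P5 back left 316, 316 and 334. Of those past the test, the largest positive differences were those of Sprr1b at 6.08, Lor at 5.05, Krt16 at 4.79 and Krt6b at 4.42. The age differences of these keratinocyte genes were -4.10, -3.92, -4.65 and -3.996 in back, and in tail they were 1.98, 1.13, 0.13 and 0.43 and did not pass the test. Of 42 cornified envelope genes 10 had a called difference between the sites, with medians of 0.70 in tail and -1.21 in back. The largest negative difference of all was that of Spink12, a protease inhibitor gene, at -4.66 (adjusted p = 1.66e-06), which differed by 5.22 in back and 0.56 in tail (adjusted p = 0.0819). Among genes past the test Adipoq, Car3, Akr1c14, Hp and Lep followed, at -4.44, -3.82, -2.65, -2.40 and -2.36. By this test the age difference was lower in tail than in back for 11 of 31 adipocyte genes and higher for 4. It was lower for 7 of 34 macrophage genes and higher for 8 of 15 sebaceous gland genes. The test compares age differences, not levels at the sites. Coch, which encodes cochlin and was named after its values were seen, had the smallest adjusted p of all genes for the age difference in tail (1.58e-06). It was at -0.86, -1.12 and -1.18 at P1 and at 1.18, 1.04 and 0.90 at P5, and differed by 2.10 in tail and 2.09 in back.

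**Figure D4:**
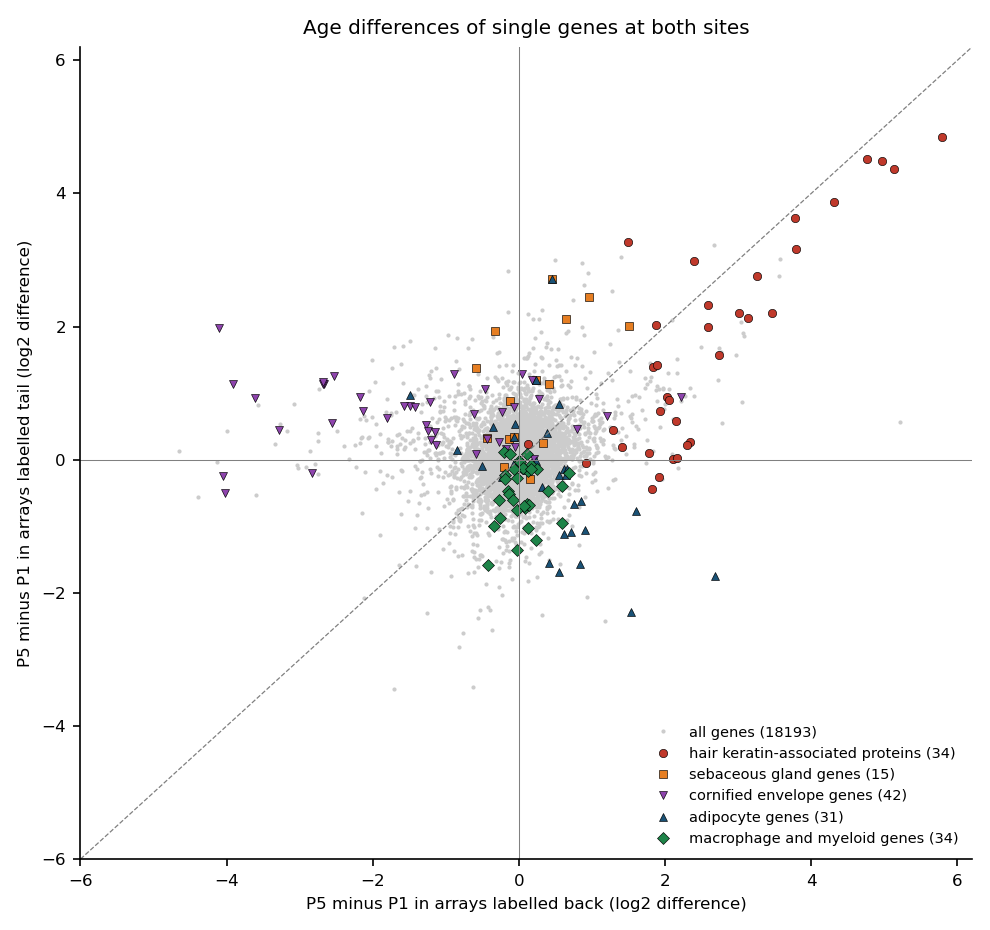
P5 minus P1 in the arrays labelled tail (vertical axis) against the arrays labelled back (horizontal axis), both as log2 differences, for all 18193 genes and 5 gene groups, with equality as the dashed line. Krtap19-2 reaches 4.84 in tail and 5.78 in back, cornified envelope genes lie to the left at -1.21 (median) in back, and adipocyte genes such as Adipoq lie below 0 in tail and to the right in back.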

How the data were processed

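RNA of dermis was hybridised to Affymetrix MG430.2A arrays, 12 in all, with 3 for each labelled site (tail, back) and age (P1, P5). The authors normalised the arrays by RMA. The deposited values are taken here as log2 values, the scale RMA gives, since the base is not stated with them, and they had also been centred for each probe set on its median over the 12 arrays. The largest remaining median of a probe set was 5e-07 in size, so levels are lost. Precision is set by how many arrays there are.

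Of 45101 probe sets 64 controls were left out. Genes were named from the platform annotation of probe sets with exactly 1 symbol (34945, against 932 with several and 9160 with none). Of these, 34741 matched RefSeq (GRCm38.p6) by gene identifier, with 0 symbols changed. A gene's value was the mean of its probe sets, which number more than 1 for 9010 of the 18193 genes. A linear model of the 4 groups was fitted to all 12 arrays with limma 3.58.1 (lmFit and eBayes, R 4.3.3), and p-values were adjusted by Benjamini-Hochberg over all probe sets or all genes. Genes with an adjusted p under 0.05 were called. The difference between sites is the interaction term of the same fit. Values after a difference in the text are log2 differences of P5 minus P1 unless named otherwise, with the SE of the fit. The scripts were tested on simulated data.

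The comparison, the 63 gene lists (1558 genes, 1412 measured) and the genes named were chosen with earlier results of these data known. The rule took the 15 largest called differences in each direction with arrays that did not overlap, the 5 largest called members of each list, fixed lineage and Wnt markers, and the 8 largest differences between sites in each direction. Other genes, such as list members that were not called, were named after their values were seen. Leaving out both P1 tail replicate 4 and P5 tail replicate 2 was added after seeing the data. Arrays were not treated as paired by replicate number. The deviations of same-numbered arrays from their group means correlated at -0.13 to 0.23. With 3 arrays in a group this cannot show whether same-numbered arrays shared a mouse. The tail groups share the number 4 alone.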

Additional observations from a re-analysis of the deposited data

Results flagged for a closer look

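The genes below were singled out since their age differences in the libraries labelled tail and labelled back differed by the interaction test of limma (adjusted p under 0.05). Each value is P5 minus P1 in tail minus P5 minus P1 in back, on the log2 scale, and no explanation was tested.

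Among epidermal genes the value was 6.08 for Sprr1b, 5.05 for Lor, 4.79 for Krt16, 4.42 for Krt6b, 2.99 for Krt77, 2.53 for Col17a1, 1.83 for Krt15 and 1.76 for Krt14. Follicle and gland genes included Cst6 at 2.50, Ces4a at 2.10, Krt79 at 1.96, Lgr6 at 1.49, Sox9 at 1.08 and Lrig1 at 0.77. Lipid genes included Elovl4 at 2.67, Cidea at 2.28, Acsbg1 at 2.25, Scd3 at 1.48, Far2 at 1.47, Me1 at 1.00, Plin2 at 0.97, Dhcr7 at 0.92, Acacb at 0.82 and Fads1 at -0.77. Among detoxification and defence genes, Cyp1a1 was at 1.93, Aldh3a1 at 1.86, Defb6 at 1.73 and Nqo1 at 0.93, and Cyp2e1 was at -1.69.

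Of 31 adipocyte genes 11 had a negative and 4 a positive value past the test, the latter including Cidea and Plin2 above. Values were -4.44 for Adipoq, -3.82 for Car3, -2.40 for Hp, -2.36 for Lep, -2.23 for Cidec, -1.96 for both Fabp4 and Retn and -1.41 for Cd36, whereas Cebpa was at 0.84. Outside that list Spink12 was at -4.66, Akr1c14 at -2.65 and Acvr1c at -2.01.

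Among signalling genes Grem1 was at 2.36, Sostdc1 at 1.79, Fst at 1.43 and Tgfb3 at 1.12. Sfrp4 was at -1.91, Agtr2 at -1.86, Igf1 at -1.55, Fzd4 at -1.43, Prom1 at -1.34, Chrdl1 at -1.30, Igfbp3 at -1.22, and both Ghr and Hhip at -0.88. Of matrix genes, Col4a5 was at 1.31, Adamts12 at -1.28 and Adamts20 at -1.94. Of immune genes, Clu was at 1.69, Cd3g at 1.49, F13a1 at -1.55, Cd163 at -1.45, Mrc1 at -1.32 and Pf4 at -1.16. The transcription factor genes Fos and Egr2 were at 2.03 and 1.61.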

How the results depend on the processing

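Of the 168 named genes, the 132 called kept their direction under all alternatives, and 15 of the 36 not called changed sign under at least 1. Of 2666 values 402 lost and 15 gained significance. The 1405 probe sets and 964 genes called became 682 and 433 with array weights, 364 and 315 from the 6 tail arrays alone, 534 and 376 at an adjusted p under 0.01, and 704 and 444 without both P1 tail replicate 4 and P5 tail replicate 2. The unpaired t-test called 3855 and 1845 unadjusted, and 1 and 0 after Benjamini-Hochberg (limma called 3757 genes at an unadjusted p under 0.05). With 1 array left out the counts ran from 667 to 3038 and from 472 to 1685, being 667, 731, 3038 and 2231 probe sets without P1 tail replicate 4, P1 tail replicate 6, P5 tail replicate 3 and P5 tail replicate 4. Array centring, trend and robust variances, and leaving out probe sets of shared sequence kept the counts within 1.5 times. A fixed replicate block, by number over both ages, left 425 probe sets and 377 genes. A random block that joined tail and back arrays of the same age and number (correlation 0.14) left 1445 and 988. The random block does not bear on pairing between the ages, and the numbers were not taken as pairs. The 522 genes that differed between sites were 177 at an adjusted p under 0.01 and from 239 to 731 with 1 array left out. The 349 genes at 2-fold ran from 275 to 486. The filter on the lowest 20% of values was not run, since centred values hold no levels. The causes were not tested.

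Counts within the gene groups moved too. With array weights 7 of the keratin-associated protein genes rose, 2 hair shaft, 5 keratinocyte, 0 antigen presentation and 0 cornified envelope genes, and 2 mast cell, 5 dermal papilla, 1 reticular, 1 fetal and 0 muscle genes fell. From the 6 tail arrays alone 5 hair shaft, 6 lipid, 4 keratinocyte, 3 adipocyte, 2 BMP, 1 antigen presentation and 0 cornified envelope genes rose, and 5 macrophage, 1 mast cell, 4 imprinted, 4 dermal papilla, 2 reticular, 2 fetal, 1 complement, 3 metalloproteinase and 8 muscle genes fell. With the fixed replicate block 8 lipid, 5 keratinocyte, 2 adipocyte, 1 BMP, 2 detoxification, 0 antigen presentation and 5 cornified envelope genes rose, and 7 macrophage, 4 imprinted, 5 dermal papilla, 3 IGF axis, 1 reticular, 1 fetal, 2 complement and 3 metalloproteinase genes fell. The counts of sebaceous genes that rose (8) and adipocyte genes that fell (7 or 8) stayed within 1.5 times under these 3 settings.

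Sign changes were limited to differences that had not passed the test. With array weights Ccnd1 was at -0.091, Cd34 at -0.065, Col3a1 at -0.019, Ctnnb1 at -0.03 and Krtap4-1 at -0.304. With the fixed replicate block Ccnd1 was at -0.09, Cd34 at -0.413, Col3a1 at -0.146, Ctnnb1 at -0.043, Fos at -0.089, Igf1r at 0.019, Krtap4-1 at -0.594 and Pcna at 0.013, and with the random block Cd34 was at -0.004. Without both P1 tail replicate 4 and P5 tail replicate 2 Ccnd1 was at -0.087, Cd34 at -0.07, Ctnnb1 at -0.031, Krt1 at -0.555, Krt16 at -0.469, Krtap4-1 at -0.844, Krtap5-5 at -0.097 and Lor at -0.36. With 1 tail array left out the differences crossed 0 for Ccnd1 (-0.164 to 0.215), Cd34 (-0.185 to 0.13), Col3a1 (-0.049 to 0.1), Ctnnb1 (-0.036 to 0.046), Igf1r (-0.084 to 0.016), Itga8 (-0.078 to 0.329), Krt1 (-0.406 to 1.093), Krt16 (-0.3 to 0.59), Krtap4-1 (-0.478 to 0.891), Lef1 (-0.219 to 0.056), Lor (-0.071 to 2.213) and Tcf7l2 (-0.28 to 0.105).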

Other observations

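Genes of Schwann cells, which wrap the nerves of the skin, rose in 3 of 27 cases in the libraries labelled tail (11.1%, against 3.34% of all genes), with a median of 0.30 in tail and 0.35 in back. Egr2, the regulator of myelination and also an immediate early gene, was at 0.03, 0.15 and -0.10 at P1 and at 1.57, 1.88 and 0.92 at P5 (difference 1.43, SE 0.20, adjusted p = 0.00136). Ncmap, which encodes a protein of peripheral myelin, differed by 0.70. The count was 6 without P5 tail replicate 3 and 7 without P5 tail replicate 4. Krt6a and Krt17, keratins of the companion layer of the follicle and of stressed epidermis, rose by 1.91 and 0.73. They were the called members among 16 stress keratinocyte genes (12.5%, against 3.34% of all genes), and 4 were called without P5 tail replicate 4.

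Of 30 immediate early genes, which respond within minutes to handling and to growth factors, 1 rose and 1 fell in tail. Each is 3.33%, against 3.34% of all genes higher and 1.96% lower. The medians were 0.14 in tail and -0.90 in back. For 15 of the 30 the age difference in tail was called higher than that in back. Over all genes 2.87% were called in either direction by the interaction test. Fos differed by 0.39 in tail (adjusted p = 0.383) and by -1.64 in back. The number of immediate early genes that rose was 3 without P5 tail replicate 3 or 4 and 2 without P1 tail replicate 4, and the number that fell was 0 without P1 tail replicate 4 or 5 or P5 tail replicate 4 and 2 without P1 tail replicate 6. None of 32 interferon-responsive genes, 34 genes of oxidative phosphorylation and 28 of ribosome biogenesis passed the limma test with age in tail, and 4, 3 and 5 of them had an unadjusted p under 0.05. By the unpaired t-test with Benjamini-Hochberg adjustment the number of genes called in all was 0.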
